A study of Rattus norvegicus with 2 samples.

Results

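NF-kB is a family of transcription factors that switches on genes of inflammation and cell survival, and 10 genes of its subunits and of its feedback were followed in the RNA of rat urine. They were chosen by name, and a gene was found where its number-only gene ID in the deposited table carried that symbol. This found 8 of the 10 among 16484 number-only gene IDs. The 8 are the subunit genes Nfkb1, Nfkb2 and Rela and the feedback genes Nfkbia, Nfkbiz, Birc3, Ier3 and Zfp36, while Relb and Tnfaip3 were not analysed here.

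The urine came from Sprague Dawley rats of 8 weeks of age (post natal day 56 in the labels), and there was 1 library in each group. Whether this age is that at surgery or at sampling is not stated in the sources used here. In the UUO group the right ureter was ligated (unilateral ureteral obstruction, a surgical model that leads to scarring of the kidney). The WT group had the same surgery without ligation, so that it is a sham-operated group. Sampling was 2 weeks after surgery, with urine drawn from the ureter by catheter in both groups. The number of rats behind each library and their sex are not given in the sources used here. The 2 libraries are named UrRf and Urc in the table and were read as UUO and WT, so that every direction below would be opposite if those names were exchanged.

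At rest, dimers of Rel-family proteins are held in the cytoplasm by inhibitor proteins of the IkB family. Signals from tumour necrosis factor, interleukin-1 and Toll-like receptors lead to the phosphorylation and breakdown of the inhibitor, and the freed dimer enters the nucleus. Among its targets are genes that restrain the response, so that transcripts of the inhibitors are themselves readouts of the pathway in many cell types. In the obstructed kidney NF-kB is known as a pathway of tubular cells and of the leukocytes that enter the tissue.

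The promoters of the members are shown first, because several of them are known targets of the factor that they form or restrain. RefSeq sequences of 250 bases before and 50 bases after the annotated start (build GRCr8) were matched by gene ID for 6 of the 8 members. A 10-letter consensus of the kappaB motif was searched on both strands, and so was the AP-1 motif TGANTCA. Capitals mark a match, and the stretch printed runs from 250 bases before to 20 bases after the start. Nfkbia lies at chr6:78597053-78597322 on the minus strand, Nfkbiz at chr11:58251471-58251740 on the plus strand, Nfkb1 at chr2:226805443-226805712 on the minus strand and Nfkb2 at chr1:255108124-255108393 on the plus strand (GRCr8).
Nfkbia promoter: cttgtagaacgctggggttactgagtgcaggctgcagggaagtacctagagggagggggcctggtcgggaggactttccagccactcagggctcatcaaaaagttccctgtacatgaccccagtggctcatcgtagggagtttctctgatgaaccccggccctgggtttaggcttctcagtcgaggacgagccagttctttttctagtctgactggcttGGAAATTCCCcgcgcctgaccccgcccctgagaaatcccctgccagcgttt
Nfkbiz promoter: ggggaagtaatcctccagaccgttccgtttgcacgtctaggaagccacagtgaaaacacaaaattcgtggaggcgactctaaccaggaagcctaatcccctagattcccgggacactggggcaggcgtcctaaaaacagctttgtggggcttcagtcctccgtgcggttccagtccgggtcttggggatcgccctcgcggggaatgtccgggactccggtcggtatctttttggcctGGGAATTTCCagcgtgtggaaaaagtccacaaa
Nfkb1 promoter: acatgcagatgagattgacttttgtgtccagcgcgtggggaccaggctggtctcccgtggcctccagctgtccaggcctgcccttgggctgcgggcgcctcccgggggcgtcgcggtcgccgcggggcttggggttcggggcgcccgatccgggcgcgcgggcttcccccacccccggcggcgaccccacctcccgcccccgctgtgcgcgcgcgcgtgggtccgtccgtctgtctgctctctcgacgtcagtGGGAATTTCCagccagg
Nfkb2 promoter: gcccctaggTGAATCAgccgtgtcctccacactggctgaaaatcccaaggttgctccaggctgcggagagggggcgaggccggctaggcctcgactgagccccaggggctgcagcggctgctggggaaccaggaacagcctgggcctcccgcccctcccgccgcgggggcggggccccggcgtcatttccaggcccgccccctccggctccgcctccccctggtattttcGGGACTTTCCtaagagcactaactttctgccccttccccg

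A kappaB match was found in 4 of the 6 promoters, and each lay within 31 bases of the annotated start. In Nfkbiz it began at position -13, in Nfkb2 at -20 and in Nfkb1 at 4, counted from the start, with the first transcribed base as 1. In Nfkbia it lay on the opposite strand from -31 to -22. The promoters of Rela and Zfp36 held 0 matches in this window, which says only that these letters are not there. Among all 33469 listed promoters 7.51% held a kappaB match. The only AP-1 match was in Nfkb2, from -241 to -235, and 7.33% of all promoters held that motif. The AP-1 match reads as the motif on both strands, and it does not overlap the kappaB match.

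**Figure D1:**
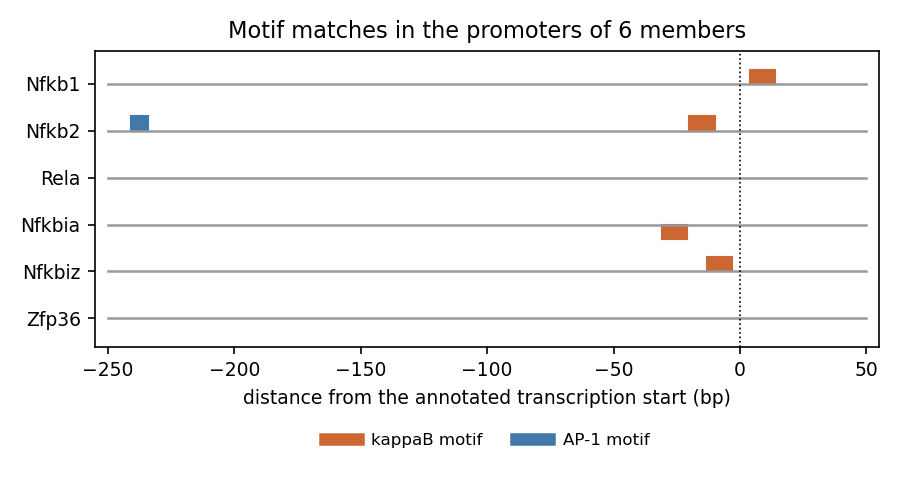
Motif matches in the promoters of 6 members, by distance from the annotated transcription start in bp. Orange boxes are kappaB matches (above the line on the plus strand of the gene, below it on the opposite strand) and the blue box is an AP-1 match; the 4 kappaB matches sit within 31 bp of the start and Rela and Zfp36 have 0.

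Across the detected genes with a listed promoter, the share with a kappaB match was 10.3% of 2039 genes that were higher in UUO urine at the 2-fold limit and 10.4% of 2977 genes that were lower. The median difference of log2(FPKM + 1) was -0.46 for 831 genes with a match and -0.53 for 7269 genes without one. Both shares and both medians lay close together, and no test was made of them.

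Levels are given as FPKM (fragments per kilobase of transcript, scaled by the authors to a library total that is not given in the sources used here). FPKM is a level per length, so orders and ratios of genes set listed values side by side. They hold only as far as each estimate does. The housekeeping gene Gapdh was listed at only 0.406 in WT and 0.367 in UUO urine, and features that share a locus may divide its reads. Detection means an FPKM of 1 or more. A change is the difference of log2(FPKM + 1), UUO minus WT, and was counted as higher or lower at 1 or more in size (2-fold on that scale), which understates the change of low genes. By these settings a gene at 0 in WT and detected in UUO urine is always counted as higher. A gene at 0 in UUO and detected in WT urine is always counted as lower. With 1 library per group there was no replicate error and no test, and every difference describes these 2 libraries. Multiples of a total that fits the steps of the FPKM values can also give whole fragments, so that only a fixed range of totals was searched. Within it the steps fitted a normalising total of 2115000 fragments in WT and 2446000 in UUO urine. By that fit 1 fragment on a feature of 1000 bp was worth an FPKM of 0.542 in the WT library and 0.496 in the UUO library.

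At the 2-fold limit 2 of the 3 subunits (Rela and Nfkb2) were lower and 4 of the 5 feedback genes (Nfkbia, Nfkbiz, Birc3 and Ier3) were higher in UUO urine than in WT urine, in the values as deposited. Birc3 was at 0 in WT urine, so that its call followed from detection in UUO urine alone. Nfkb1 (-0.59) and Zfp36 (0.22) stayed within the limit. In sign alone, all 3 subunits had a difference below 0 and all 5 feedback genes one above 0. With a median of -0.51 over all 9853 genes, a sign below 0 was the more common one, so that the subunits shared it with most genes. By the median ratio the median over all genes was 0.51, and a sign above 0 was the more common one. Under 3 other scalings of the UUO library the members' signs held for 7 of the 8 genes, and Nfkb1 was the exception under 2 of the 3. Nfkb2 kept its sign under these scalings but not when all features of its locus were summed. In all 4 of the 8 members were higher, against 25.7% of 9853 annotated genes, and 2 were lower, against 36.5%. The median difference was 0.61 over the members and -0.51 over all 9853 genes. A change of cell number and a change of RNA per cell cannot be told apart in such bulk urine RNA. RNA from cells and RNA free of cells cannot be told apart either. The study's methods describe centrifuging the urine before it was stored and again once thawed, and do not say which fraction gave the RNA.

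**Figure D2:**
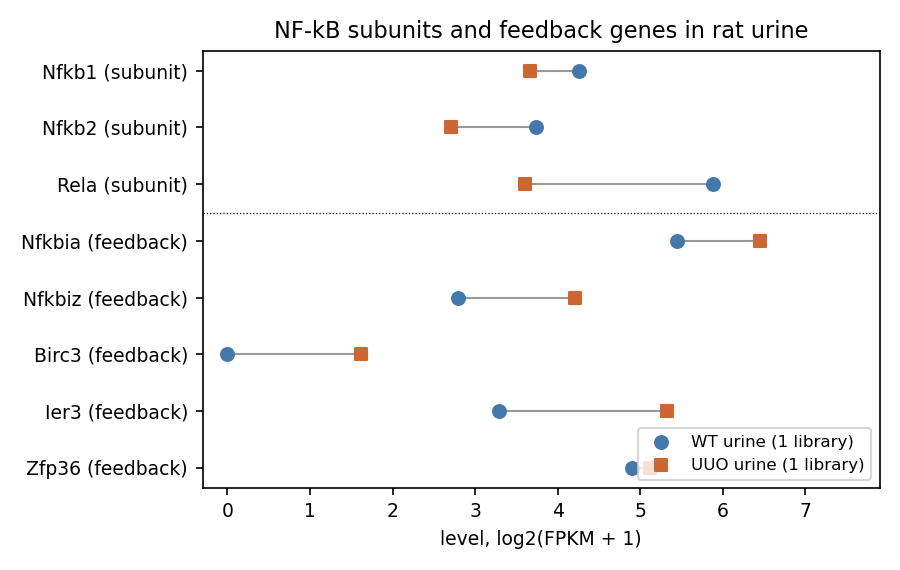
Level of each member, log2(FPKM + 1), in the WT library (blue circle) and the UUO library (orange square), 1 library each, with no error bars because there were no replicates. The 3 subunits above the dotted line have the UUO square to the left of the WT circle, and the 5 feedback genes below it have the square to the right, with Zfp36 nearly level and Birc3 at 0 in WT.

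Rela encodes the main transactivating subunit of the classical dimer. FPKM stood at 58.2 in the WT library and at 11.1 in the UUO library, a log2 difference of -2.29. It was the highest of the members in WT urine and only the sixth in UUO urine. Among the annotated genes above 0 it ranked 1201 of 8024 in WT and 3403 of 12008 in UUO urine. The gene is listed on chromosome 1, 227927867 to 227938574 (rn5, the build in the submitters' processing notes). Its difference remained beyond the 2-fold limit under every scaling tried, at -1.996 with equal sums, -1.50 by the 75th percentile and -1.41 by the median ratio.

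Nfkb1 encodes the precursor that is processed into the DNA-binding partner of Rela. FPKM stood at 18.1 in the WT library and at 11.7 in the UUO library, a log2 difference of -0.59, which is within the 2-fold limit. Among the annotated genes above 0 it ranked 3599 of 8024 in WT and 3245 of 12008 in UUO urine. The sign of Nfkb1 depended on the scaling, with 0.29 by the median ratio and 0.20 after matching the 75th percentile. It is listed on chromosome 2, 259330376 to 259444869.

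Nfkb2 encodes the precursor of the alternative pathway, where its processed form pairs with Relb. FPKM stood at 12.4 in the WT library and at 5.52 in the UUO library, a log2 difference of -1.04. This call sat close to the limit, and the difference was -0.76 with equal sums and -0.21 by the median ratio. Among the annotated genes above 0 Nfkb2 ranked 4519 of 8024 in WT and 5575 of 12008 in UUO urine. Nfkb2 is listed on chromosome 1, 273479773 to 273505297, a locus shared by 27 features, among them the gene Psd. The sum over that locus was 14.9 in the WT library against 20.8 in the UUO library, and its log2 difference of 0.46 had the sign opposite to that of the gene alone.

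Compared with one another, the 3 subunits stood in different proportions in the libraries. Rela had 3.21 times the FPKM of Nfkb1 in WT urine and 0.947 times in UUO urine. For Nfkb2 over Nfkb1 the same ratio was 0.682 in WT urine and 0.47 in UUO urine. Such ratios within a library do not depend on how it is scaled as a whole.

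Nfkbia encodes IkB alpha, the inhibitor that is broken down on activation and made again as a target of NF-kB. FPKM stood at 42.4 in the WT library and at 86.5 in the UUO library, a log2 difference of 1.01. It was the second of the members in WT urine after Rela and the first in UUO urine, where it ranked 286 of 12008 genes above 0, against 1710 of 8024 in WT urine. It is listed on chromosome 6, 85803989 to 85807223. The value lies just past the limit as deposited, and was 1.33 with equal sums and 1.94 by the median ratio, but 0.88 with a pseudocount of 10, which ended the call.

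Nfkbiz encodes IkB zeta, a nuclear member of the inhibitor family that acts as a cofactor at secondary target genes. FPKM stood at 5.93 in the WT library and at 17.4 in the UUO library, a log2 difference of 1.41. With a pseudocount of 10 the difference was 0.78, within the limit. Its rank was 6163 of 8024 in WT and 2162 of 12008 in UUO urine. It is listed on chromosome 11, 50420562 to 50447282.

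Ier3 encodes an early response protein linked to cell survival under stress, and its transcript is induced by NF-kB. FPKM stood at 8.77 in the WT library and at 39.1 in the UUO library, a log2 difference of 2.04, the greatest on the higher side with a pseudocount of 1. With a pseudocount of 0.1 it was 2.14, and that of Birc3 was 4.44. It ranked 5309 of 8024 in WT and 840 of 12008 in UUO urine. It is listed on chromosome 20, 5535613 to 5537587. At a 4-fold limit Ier3 was higher and Rela lower, 1 of the 8 members on each side, near the shares of all genes (10.7% and 12.0%).

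Birc3 encodes a ubiquitin ligase of the inhibitor of apoptosis family that acts at the tumour necrosis factor receptor. The WT library lists it at 0 and the UUO library at an FPKM of 2.07, so that no fold is given. Its log2(FPKM + 1) difference was 1.62 (0.27 with a pseudocount of 10, within the limit), and by the fit above its UUO level is that of few fragments for each 1000 bp. It was the only 1 of the 8 members at 0 in WT urine, where 20.5% of the genes detected in UUO urine were at 0. An exact 0 can be a failed estimate, since Hprt1 was listed at 0 in both libraries and Ppia at 0 in UUO but at 27.7 in WT urine. Birc3 is listed on chromosome 8, 6047453 to 6062839.

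Zfp36 encodes tristetraprolin, which binds AU-rich mRNAs of cytokines and leads to their decay. FPKM stood at 28.9 in the WT library and at 33.7 in the UUO library, a log2 difference of 0.22. This was the smallest difference among the members as deposited, and it passed the limit only by the median ratio (1.13) and the 75th percentile (1.04). Zfp36 is listed on chromosome 1, 86595414 to 86597898. Its rank among the genes above 0 was 2440 of 8024 in WT and 1020 of 12008 in UUO urine.

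The order of the members by level was Rela, Nfkbia, Zfp36, Nfkb1, Nfkb2, Ier3, Nfkbiz and Birc3 in WT urine. In UUO urine it was Nfkbia, Ier3, Zfp36, Nfkbiz, Nfkb1, Rela, Nfkb2 and Birc3. In UUO urine 4 feedback genes thus stood above every subunit, while Rela stood above every feedback gene in WT urine. Nfkb1 and Rela were close in UUO urine (11.7 and 11.1), as were Ier3 and Zfp36 (39.1 and 33.7). Whether neighbours in the order differ cannot be said without replicates.

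Summed over the 5 feedback genes, FPKM came to 86.0 in the WT library and 179 in the UUO library. The 3 subunits summed to 88.6 in WT and 28.4 in UUO urine. Feedback genes over subunits came to 0.97 in WT and 6.31 in UUO urine, 6.5 times apart. Nfkbia alone over Rela came to 0.729 and 7.79, 10.7 times apart. For Ier3 over Rela the values were 0.151 in WT and 3.51 in UUO urine, and for Nfkbiz over Rela 0.102 and 1.57. Zfp36, itself nearly level, came to 0.497 and 3.04 over Rela, 6.11 times apart. The lower Rela value in UUO urine thus enters every ratio over Rela. With Nfkb1 in place of Rela as the denominator, Nfkbia came to 2.34 in WT and 7.38 in UUO urine, 3.16 times apart. The contrast was smaller with Nfkb1 than with Rela below the line, and had the same direction.

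Scaling moved all members together, since each alternative raises the UUO values by 1 factor. The factor was 1.24 with equal sums over the annotated genes, 1.79 for the same 75th percentile and 1.91 by the median ratio. With equal sums 4 of the 8 members were higher, against 30.3% of all genes, and 1 was lower, against 28.1%. By the 75th percentile 5 were higher, against 38.6%, and 1 was lower, against 16.7%. By the median ratio 5 were higher, against 40.7%, and 1 was lower, against 14.9%. The median over all genes moved from -0.51 to 0.51, and that of the members from 0.61 to 1.53.

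**Figure D3:**
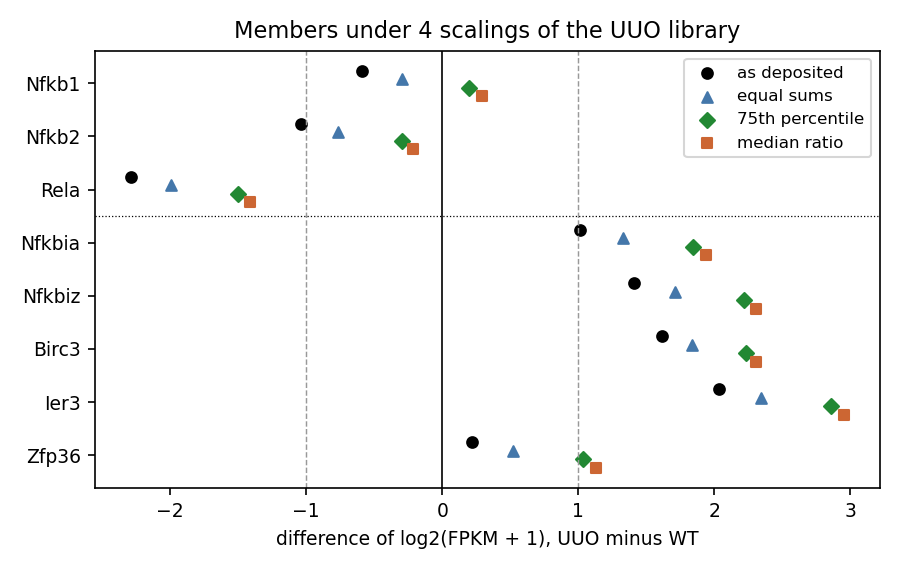
Difference of log2(FPKM + 1), UUO minus WT, of each member as deposited (black circles) and after 3 rescalings of the UUO library (triangles, equal sums; diamonds, 75th percentile; squares, median ratio), with dashed lines at the 2-fold limit. Rela stays left of -1 and Nfkbia, Nfkbiz, Birc3 and Ier3 right of 1 throughout, Zfp36 passes 1 under 2 rescalings, and Nfkb1 changes sign under the same 2.

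Of the 2534 annotated genes that were higher, 631 were above 0 in both libraries and 1903 were listed at 0 in WT urine. Among the 7784 genes that were above 0 in both libraries and detected in at least 1, 8.11% were higher and 44.1% were lower at the 2-fold limit, with a median of -0.84. Of the 7 members above 0 in both, 3 were higher (Nfkbia, Nfkbiz and Ier3) and 2 were lower (Rela and Nfkb2). By the median ratio 4 of these 7 were higher, against 21.2% of such genes, and 1 was lower, against 18.2%.

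**Figure D4:**
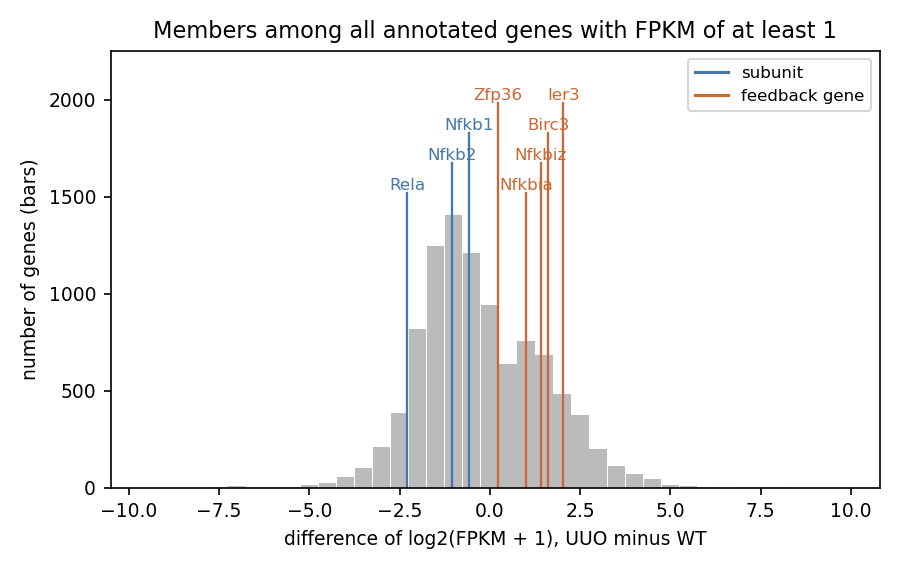
Number of annotated genes (grey bars, 0.5 wide) by difference of log2(FPKM + 1), UUO minus WT, for the 9853 genes detected in at least 1 library, with the 8 members as lines. The subunits (blue) lie between -2.29 and -0.59 on the side that holds most genes, and the feedback genes (orange) between 0.22 and 2.04 in the smaller group to the right.

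The other genes of the pathway were read from 4 lists, and the background for each is the same 25.7% higher and 36.5% lower. The first held further Rel and IkB family genes and the kinases that act on them, with 9 of 11 genes measured. Of these 9, 2 were higher and 1 was lower in UUO urine, with a median of 0.41. By the median ratio and likewise at the 75th percentile 5 of the 9 were higher, against 40.7% and 38.6% of all genes. Bcl3, a nuclear IkB protein that binds dimers of the processed subunits, was listed at 0 in WT and at 5.39 in UUO urine. Nfkbib, IkB beta, was at 4.09 in WT against 9.34 in UUO urine (1.02). Ikbkg, the regulatory subunit of the IkB kinase complex, was 43.8 in WT and 16.5 in UUO urine (-1.36). With the median ratio or the 75th percentile as the scale, however, 0 genes of the list were lower, against 14.9% and 16.7% of all genes.

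Receptors and adaptors that signal to NF-kB were measured for 25 of 27 genes, of which 21 were detected in at least 1 library. Of these 21, 4 were higher and 9 were lower, with a median of -0.77. The higher genes were mostly receptors: Tnfrsf1a, the ubiquitous tumour necrosis factor receptor, at 2.14 in WT and 9.35 in UUO urine (1.72), and Tnfrsf1b, Il1r1 and the adaptor Traf1, which were listed at 0 in WT and at 4.18, 3.15 and 3.06 in UUO urine. The lower genes with the greatest differences were the adaptor Traf3 (24.1 in WT, 5.13 in UUO; -2.03), the kinase Ripk1 (21.997 and 4.64; -2.03), the receptor Tlr4 (3.31 and 0.141; -1.92) and the adaptor Tradd (41.2 and 10.2; -1.91). By the median ratio 4 of the list were lower, against 14.9% of all genes.

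The next list held further genes that restrain the response by ubiquitin editing, mRNA decay or other feedback, with 14 of 17 genes measured and 13 detected in at least 1 library. Of these, 5 were higher and 3 were lower, and the median was 0.01. Socs3, a feedback inhibitor of cytokine signalling, was listed at 0 in WT and at 23.4 in UUO urine. Zc3h12a, an RNase that degrades inflammatory mRNAs, was listed at 0 and 9.53, and Irak3, an inhibitory kinase-like protein of Toll-like receptor signalling, at 0 and 1.79. Dusp1, a phosphatase of MAP kinases, was 19.4 in WT and 52.4 in UUO urine (1.39). The lower genes were the ubiquitin ligase Itch (44.2 in WT, 13.7 in UUO; -1.62), Tnip1, a partner of Tnfaip3 (76.8 and 30.7; -1.30) and Sqstm1, an autophagy receptor (916 and 429; -1.09). By the median ratio 0 genes of this list were lower, against 14.9% of all genes.

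Genes known as NF-kB targets were measured for all 37 of the list, of which 25 were detected in at least 1 library. Of these 25, 13 were higher and 3 were lower, with a median of 1.48. Of the 13 higher genes 12 were listed at 0 in WT urine, so that their calls followed from detection in UUO urine alone. The greatest differences were those of the chemokine Ccl3, at 0 in WT and 294 in UUO urine, the AP-1 subunit Junb at 0 and 268, the chemokine Cxcl2 at 0 and 30.3, and the cytokine Il1b at 0 and 25.7. Only Ccl20 was higher and above 0 in both, at 0.707 in WT and 3.96 in UUO urine, and it is named after its value was seen. On the lower side were Myc (24.3 in WT, 6.21 in UUO; -1.81), the growth factor Csf1 (3.70 and 0.476; -1.67) and the survival gene Cflar (83.8 and 38.7; -1.09). Several targets were listed at 0 in both libraries, 7 of 37 in all, among them Il6, Ccl4 and Ccl5. The study had drawn attention to inflammatory and chemotactic genes from the same libraries, so this list is no independent evidence of a direction.

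**Figure D5:**
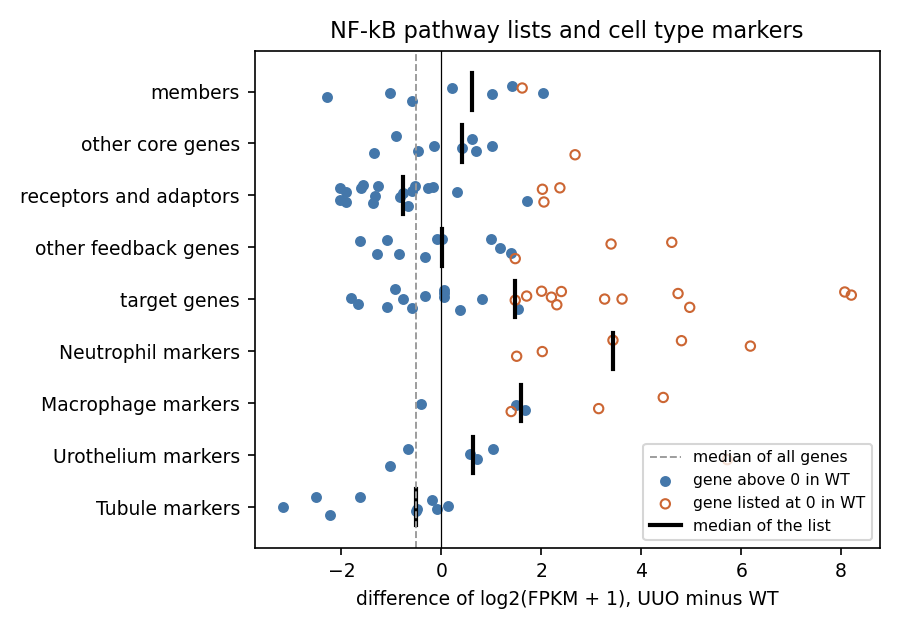
Difference of log2(FPKM + 1), UUO minus WT, of single genes in the members, the 4 pathway lists and 4 marker lists, for genes detected in at least 1 library. Filled points are genes above 0 in WT, open points genes listed at 0 in WT, black bars the list medians and the dashed line the median of all genes (-0.51); most targets right of 1 and all neutrophil markers are open points.

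The detected markers of neutrophils and red cells and most of those of macrophages were higher in UUO urine, as 4 of the feedback genes were, and their part in the result was not tested. Of all annotated genes detected in at least 1 library, 25.7% were higher and 36.5% were lower. Of 9 neutrophil markers 5 were higher in UUO urine, with summed FPKM at 0 in WT against 114 in UUO urine, while Mpo and Elane were at 0 in both. With all 9 at 0 in WT urine, each one detected in UUO urine was counted as higher by construction. Of 10 macrophage markers 5 were higher, with sums of 14.97 and 76.4, and Cd163 and Mrc1 were at 0 in both. Of 6 lymphocyte markers measured 0 were higher and 1 was lower, with sums of 9.26 and 3.87, and Cd3d, Cd3e and Ms4a1 were at 0 in both. All 4 red-cell markers measured were higher, with sums of 1499 in WT and 64428 in UUO urine. Of 6 urothelial markers 2 were higher and 1 was lower, with sums of 806 and 1112, and of 9 tubule markers 0 were higher and 4 were lower, with sums of 227 and 124. Urothelial markers were detected for 5 genes in WT and 6 in UUO urine, and tubule markers for 9 and 8. Of 8 housekeeping genes 0 were higher and 3 were lower, with sums of 2406 and 918.

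Detection of the members hardly separated the libraries. In WT urine 7 of the 8 members were detected, where 47.3% of all annotated genes were, and in UUO urine 8 of the 8, where 56.3% were.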

How the data were processed

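RNA from rat urine was sequenced in 1 WT and 1 UUO library. Per the submitters' processing notes, reads were aligned to rn5 with TopHat2 2.0.9 and Bowtie2 2.0.6, and Cufflinks 2.1.1 and Cuffdiff 2.1.1 were applied. Per the study's methods ribosomal RNA was removed and libraries were strand-specific, as described for kidney RNA. The authors gave 1 FPKM value per feature and library in the deposited table of 113011 features (the scaling total is not given in the sources used here). The authors' fold changes, p-values and q-values in that table were not used. UrRf was taken for UUO from the words renal fibrosis in the series title, and since values of that column appear under UUO in the study's lists for urine.

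Symbols came from a RefSeq table (GRCr8) that matched 16329 of 16484 number-only IDs, and rn5 loci are given as listed. Differences were computed with numpy and a pseudocount of 1 over genes detected (FPKM of 1 or more) in at least 1 library. Fragment steps were fitted on assembled features of 400 to 1200 bp that share their locus with no other. Within 0.1 of a whole number were 93.5% of 186 values in WT and 99.5% of 3530 in UUO urine. Calls and the fit were tested on simulated data, with a simulated total inside the range searched. All members, and up to 4 genes per direction with the greatest difference in each of 4 pathway lists, are named, besides 7 marker lists, of which 1 lymphocyte gene is not reported here. The members and lists were chosen with earlier results of these data known. Alternatives were pseudocounts of 0.1 and 10, other limits and scalings, and FPKM summed per locus.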

Additional observations from a re-analysis of the deposited data

Results flagged for a closer look

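The loci of the 8 members also hold 52 entries of a noncoding RNA database, which enter no comparison above. Of these, 9 had FPKM of at least 1 in UUO urine and were above their WT value, which was 0 for each of the 9, and 2 had FPKM of at least 1 in WT urine and were above their UUO value. The share over all noncoding entries was not counted, so that these counts are no result about the members' loci. Of the annotated genes, 8024 were above 0 in WT and 12008 in UUO urine. Entries with nearly the same value at 1 locus may not be independent of each other. At the locus of Zfp36 the entries NONRATG000585 and NONRATT001005 had an FPKM of 5.45 and 5.39 in UUO urine. At the locus of Nfkb2, NONRATG004044 had 3.97, NONRATG004042 had 2.84, NONRATT003670 had 2.22, NONRATT003667 had 1.94 and NONRATT003672 had 1.75. NONRATT048131 at the locus of Nfkbia had 2.61, and NONRATT032347 at the locus of Nfkb1 had 1.02. Reads of overlapping entries may be divided among them, and the strand of these entries was not examined here.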

How the results depend on the processing

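No paired analysis was possible because neither group has a second library. A count was taken as unchanged within 1.5 times, and a log2 difference if neither its sign nor its place against the limit of 1 changed, which held for 157 of 206 combinations of 21 results with 10 alternatives. Part of these combinations could not change, so this share is no measure of stability. The log2 difference of a gene does not depend on the filter or the fold limit. A detection count does not depend on the pseudocount or the fold limit. With a pseudocount of 10, 1 member was higher and 1 lower (3.76% and 17.96% of all genes), and higher genes numbered 0 in the core list, 0 among receptors and adaptors, 2 in the feedback list and 5 among targets, with 1 target lower. At a 4-fold limit 1 member was higher and 1 lower (10.7% and 12.0% of all genes), 1 core gene was higher and 0 lower, 2 receptors and adaptors were lower, 2 feedback genes were higher and 0 lower, and 0 targets were lower. With FPKM of at least 5, 1 receptor or adaptor and 6 targets were higher, where 14.0% of all genes were. Summed over the locus, 1 member was lower (27.5% of all genes) and Nfkb2 reversed to 0.46. After rescaling to equal sums 1 member and 1 feedback list gene were lower, where 28.1% of all genes were. By the median ratio (40.7% of all genes higher, 14.9% lower) the members' median was 1.53 and 1 member was lower. Under that scaling 5 core genes were higher and 0 lower. Lower were also 4 receptors and adaptors, 0 feedback list genes and 1 target, and Nfkb1 reversed to 0.29. By the 75th percentile (38.6% of all genes higher, 16.7% lower) the members' median was 1.44 and 1 member was lower. Here too 5 core genes were higher and 0 lower. Lower were also 4 receptors and adaptors and 0 feedback list genes, and Nfkb1 reversed to 0.20. Over genes above 0 in both libraries, an alternative chosen after seeing the data, 1 core gene, 1 receptor, 2 feedback list genes and 1 target were higher. Of all such genes 8.11% were higher. Stricter limits and larger pseudocounts by construction count fewer genes, and rescaling raises UUO values, while other causes were not tested. Without replicates and, by the fit, with few fragments per 1000 bp, the depth does not show whether the low genes differ.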
